A study of Mus musculus with 8 samples.

Results

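The genes described here encode the lysosome, the enzymes that address hydrolases to it with mannose-6-phosphate, and the autophagy machinery that feeds it. They are 50 genes, picked by symbol and grouped by role: 4 targeting genes, 8 cathepsins and other proteases, 14 glycosidases and sulfatases, 6 lipid hydrolases and soluble cofactors, 6 membrane proteins, and 12 autophagy genes and their regulators. All 50 were among the 21154 genes of the count table and all 50 were among the 15373 genes tested, with at least 117 counts in every library. The cells were osteoblasts sorted by GFP from enzyme-digested bone chips of female Col2.3-GFP mice, in which a fragment of the Col1a1 promoter drives GFP in bone-forming cells. All animals carried that reporter. They were young adults of 8 to 10 weeks at treatment. The DOX group (n = 5) received 4 intravenous doses of doxorubicin, an anthracycline used in chemotherapy, at 5 mg/kg and 1 week apart, the PBS group (n = 3) received phosphate-buffered saline (PBS), and bone was taken 8 weeks after treatment. The labels place PBS replicate 1 with DOX replicates 1 and 2 in batch 1, and the other 2 PBS and 3 DOX libraries in batch 2. For DOX replicate 1 the labels disagree, the title giving DOX and the treatment tag giving PBS, so the main results that rest on it are also given with this library left out or moved to the PBS group.

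Most soluble lysosomal hydrolases reach the lysosome through a mannose-6-phosphate tag, which is started in the Golgi by a phosphotransferase made of the Gnptab and Gnptg products, finished by the uncovering enzyme Nagpa, and recognised by the receptors M6pr and Igf2r. Inside the acid lysosome these enzymes break down protein, glycan and lipid, some of it delivered by autophagy, in which LC3 and GABARAP proteins are joined to the membrane of the autophagosome and cargo receptors such as Sqstm1 bind to them. The transcription factors TFEB and TFE3 bind a CACGTG-centred element near the start of many lysosomal genes, and loss of Gnptab activity in humans causes mucolipidosis, a storage disease with marked skeletal involvement.

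Depth was even, with 40985302 to 44299591 counts per PBS library and 39419027 to 44151882 per DOX library, and no pair of libraries was a duplicate. All 12 osteoblast markers looked for were present, with summed levels of 235000 to 611000 CPM (read counts scaled to the TMM-adjusted size of each library) in PBS and 263700 to 486200 CPM in DOX. Markers of macrophages, which are rich in lysosomes, summed to 5.35 to 10.2 CPM in PBS and 7.51 to 10.5 CPM in DOX, where 7 of the 12 in the table were at 0 in at least 1 library and C1qc and Fcgr1 were not listed. Osteoclast markers summed to 799 to 900.2 CPM in PBS and 810.1 to 1012 CPM in DOX. Of these, Dcstamp, Calcr and Siglec15 were not listed, and Oscar and Atp6v0d2 were at 0 in at least 1 library. Most of the osteoclast sum came from Ckb (mean 453 CPM in PBS and 472 CPM in DOX) and Ctsk (303 and 366 CPM). Acp5 had means of 6.29 CPM in PBS and 5.87 CPM in DOX. Erythroid markers reached 160.3 CPM in PBS replicate 1 and 112 CPM in DOX replicate 1, against 3.07 to 39.4 CPM in the other 6 libraries. Neutrophil markers summed to 0.538 to 42.5 CPM in PBS and 7.99 to 122 CPM in DOX, and endothelial markers to 6.90 to 29.3 CPM and 6.12 to 36.7 CPM. In bulk RNA, fewer cells of a type and less RNA per cell cannot be told apart.

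No lysosomal or autophagy gene passed the test between DOX and PBS. In the quasi-likelihood model of edgeR, fitted with batch as a term and adjusted by Benjamini-Hochberg over all genes tested at a threshold of 0.05, 0 of 15373 genes were called, a background of 0%, and the smallest adjusted p was 0.995 after rounding. Before adjustment 3 of the 50 genes were under 0.05, Gnptab on the lower side and Ctsh and Sqstm1 on the higher side. Over all genes tested the same threshold held 571 genes (3.71%), of which 304 (1.98%) were higher and 267 (1.74%) lower, so the count of 3 among 50 is near the background. The fitted log2 fold change was above 0 for 23 genes and below 0 for 27, with a median of -0.02 against 0.02 over all genes tested. That split moved with the setting: 39 were above 0 when DOX replicate 1 was moved to the PBS group (median 0.09), 29 when it was left out (median 0.03), and 31 with scaling by total counts, which moved the median of all genes to 0.11. The 95% interval of the difference had a median width of 0.70 on the log2 scale against 1.01 over all genes. It lay within 1 log2 unit of 0 for 49 of the 50, the exception being Gnptab. For those 49 genes a doubling or a halving lay outside the interval.

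**Figure D1:**
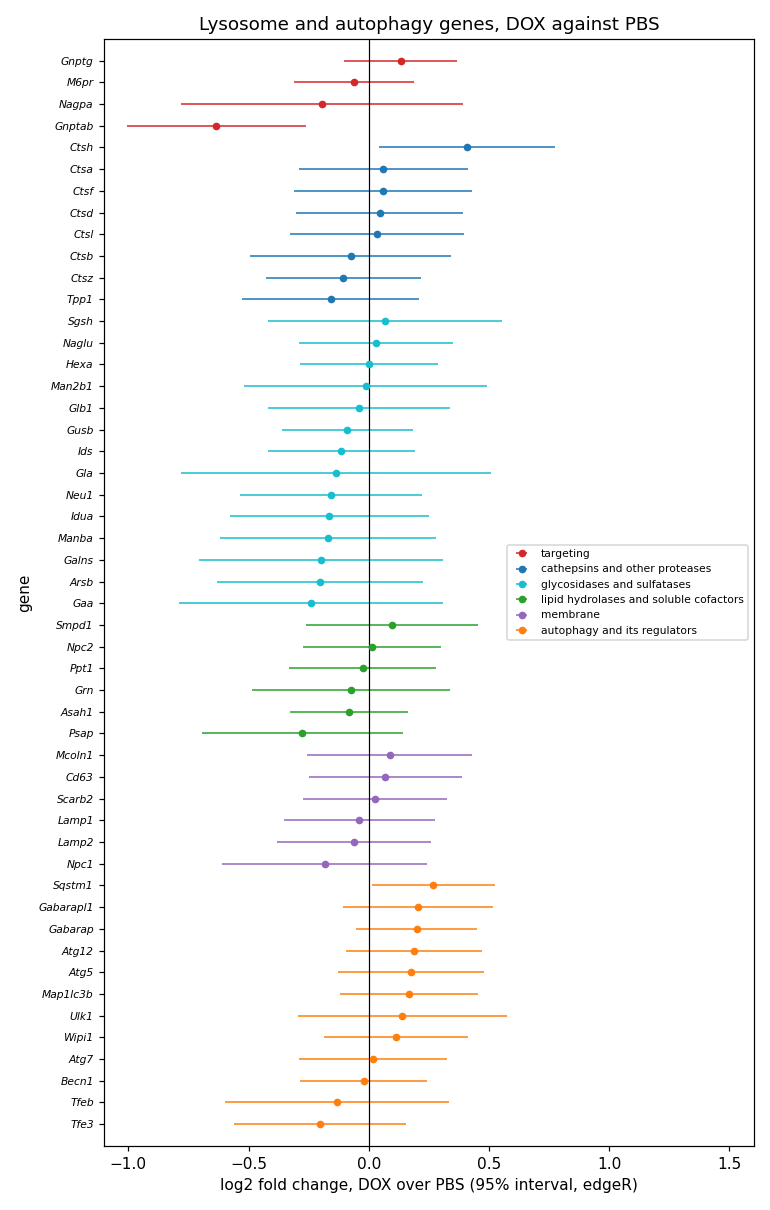
Log2 fold change of each of the 50 genes, DOX over PBS, with its 95% interval from edgeR (3 PBS and 5 DOX libraries, batch as a term), coloured by role. The interval of Gnptab lies wholly below 0 and those of Ctsh and Sqstm1 wholly above 0 before adjustment, and every other interval crosses 0.

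By role, the fitted differences were small and of mixed sign. Of the 4 targeting genes, 1 was higher and 3 lower (median log2 fold change -0.13). The proteases split into 5 higher and 3 lower (median 0.04), and the glycosidases and sulfatases into 3 higher and 11 lower (median -0.13). The lipid hydrolases and cofactors gave 2 higher and 4 lower (median -0.05), the membrane proteins 3 and 3 (median -0.01), and the autophagy group 9 higher and 3 lower (median 0.15). The split of the glycosidases and sulfatases moved with DOX replicate 1: leaving it out gave 5 higher and 9 lower (median -0.05), and moving it to the PBS group gave 12 higher and 2 lower (median 0.06). Leaving it out also turned the lipid group to 4 higher and 2 lower. The proteases were 1 higher and 7 lower without DOX replicate 2, and the autophagy genes 6 and 6 without PBS replicate 1. Without PBS replicate 1, batch 1 holds no PBS library, so the fitted difference then comes from batch 2 alone.

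The 50 genes spanned a wide range of levels in PBS osteoblasts, read as CPM per kilobase of exon. Cd63, a tetraspanin of late endosomes and lysosomes, stood highest at 556 (range 505 to 582), followed by the lysosomal membrane glycoprotein Lamp1 at 249 (193 to 288). Gabarap at 196 (189 to 206) overlapped the lower end of the Lamp1 range. Such ranges do not match the genes library by library. Psap, the precursor of the saposins that help degrade sphingolipids, stood at 126 (84.4 to 172) and overlapped the cathepsin Ctsb at 98.2 (88.7 to 116). At the low end were Gla at 1.57, Tfeb at 1.35 and the sulfamidase Sgsh at 0.828. Of the phosphotransferase, the Gnptg subunit stood at 16.5 (15.4 to 17.4) and the Gnptab subunit at 2.90 (2.33 to 3.58), with no overlap between the 2 ranges. The uncovering enzyme Nagpa at 3.39 (2.60 to 4.00) overlapped Gnptab.

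**Figure D2:**
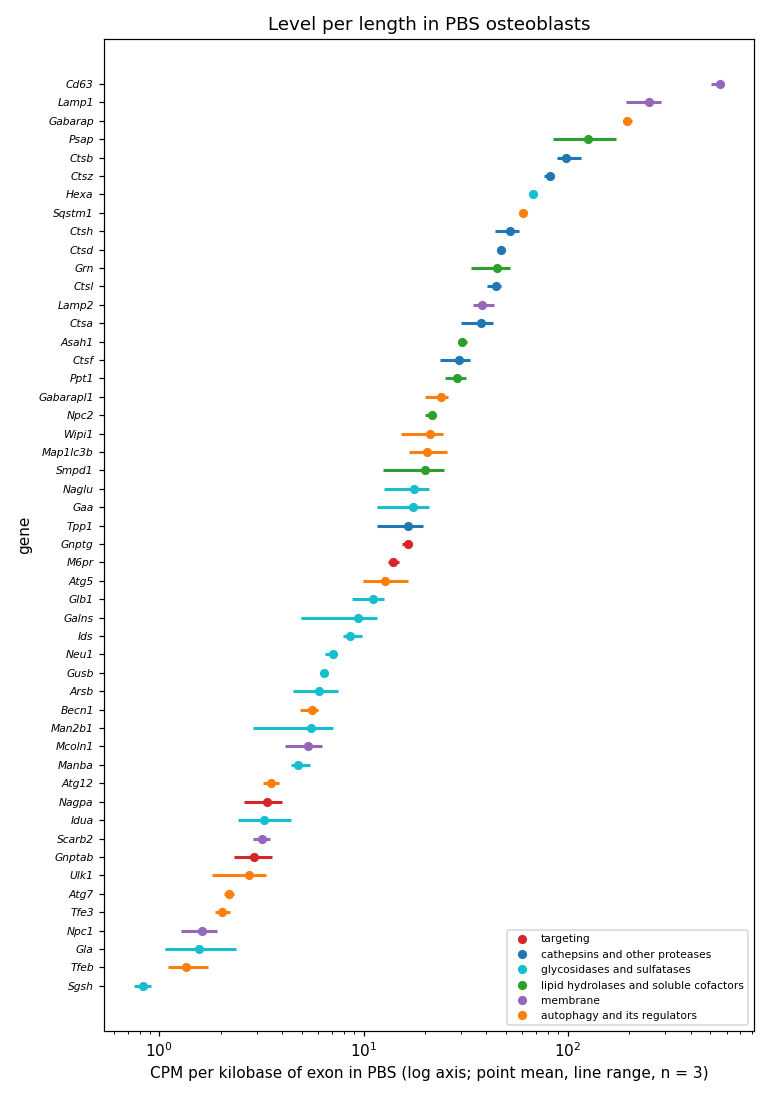
Level of each of the 50 genes in PBS osteoblasts in CPM per kilobase of exon, on a log axis. Points are means and lines the range of the 3 PBS libraries, coloured by role; levels run from 0.828 for Sgsh to 556 for Cd63.

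Promoter sequences are shown for 4 of the genes described below, because the element bound by TFEB and TFE3 was looked for in the window from 250 bases before to 50 bases after each annotated start (RefSeq, GRCm38.p6). In the printed sequences, which run 5′ to 3′ on the gene's strand, capitals mark CACGTG, or TCACGTGA where the longer form is present; both are palindromes, so they read the same on either strand, and the longer form contains the shorter. The phosphotransferase subunit Gnptg (chr17:25240091-25240390, minus strand) carries the longer form, its first base 2 bases downstream of the start. The lysosomal calcium channel gene Mcoln1 (chr8:3500269-3500568, plus strand) carries the shorter form 71 bases before its start and the longer form 46 bases before it. Atg5 (chr10:44268089-44268388, plus strand) carries the shorter form 14 bases before its start, and the acid glucosidase gene Gaa (chr11:119267713-119268012, plus strand) 140 bases before.
Gnptg: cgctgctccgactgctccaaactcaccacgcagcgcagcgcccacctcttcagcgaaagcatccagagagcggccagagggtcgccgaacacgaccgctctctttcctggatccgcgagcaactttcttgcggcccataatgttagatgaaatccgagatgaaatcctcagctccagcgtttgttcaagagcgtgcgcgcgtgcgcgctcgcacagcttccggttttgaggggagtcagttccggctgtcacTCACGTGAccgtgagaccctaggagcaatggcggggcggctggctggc
Mcoln1: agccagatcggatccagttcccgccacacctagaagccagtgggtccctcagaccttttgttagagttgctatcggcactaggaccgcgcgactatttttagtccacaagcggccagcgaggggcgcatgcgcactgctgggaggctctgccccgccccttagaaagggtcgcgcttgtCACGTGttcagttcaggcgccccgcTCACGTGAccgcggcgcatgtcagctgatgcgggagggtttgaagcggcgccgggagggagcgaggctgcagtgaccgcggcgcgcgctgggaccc
Atg5: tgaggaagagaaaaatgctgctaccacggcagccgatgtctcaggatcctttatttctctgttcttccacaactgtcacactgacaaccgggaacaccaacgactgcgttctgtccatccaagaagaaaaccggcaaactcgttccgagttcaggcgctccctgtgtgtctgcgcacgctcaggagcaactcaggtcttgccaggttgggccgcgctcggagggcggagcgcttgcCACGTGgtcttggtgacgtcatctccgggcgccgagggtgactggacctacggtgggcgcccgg
Gaa: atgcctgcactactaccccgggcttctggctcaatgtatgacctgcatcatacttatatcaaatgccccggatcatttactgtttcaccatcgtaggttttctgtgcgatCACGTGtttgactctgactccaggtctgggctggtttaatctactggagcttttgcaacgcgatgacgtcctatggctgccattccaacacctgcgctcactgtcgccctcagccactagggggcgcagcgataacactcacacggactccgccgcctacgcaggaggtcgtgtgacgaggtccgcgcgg

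Of the 50 genes, 42 had a promoter in the table. CACGTG was present in 15 of them (35.7%) against 8.09% of the 27025 genes with a promoter of that length, and TCACGTGA in 5 (11.9%) against 1.12%. The 5 were Ctsa, Ctsd, Gla, Gnptg and Mcoln1. By role, CACGTG was found in 4 of 6 matched protease promoters, 5 of 13 of the glycosidases and sulfatases, 2 of 3 targeting genes, 2 of 5 membrane proteins, 2 of 10 autophagy genes and 0 of 5 lipid hydrolases and cofactors. The promoters not matched were those of Atg12, Ctsh, Ctsb, Npc1, M6pr, Becn1, Asah1 and Galns. The 15 genes with the element had a median log2 fold change of 0.03 between DOX and PBS (10 higher, 5 lower) and the 27 without it -0.06 (11 higher, 16 lower). DOX replicate 1 stood at a median of 66.5% of the mean of the other DOX libraries for the 15 genes and 78.1% for the 27. The split with that library left out was not tested. A match describes these letters and not binding.

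Among the targeting genes, Gnptab had the smallest p of the 50 genes, and none of the other 3 was at an unadjusted p under 0.05. Gnptab, the catalytic subunit precursor, read 13.7, 21.1 and 16.4 CPM in PBS replicates 1 to 3 and 7.03, 10.1, 11.9, 13.7 and 11.2 CPM in DOX replicates 1 to 5. Every DOX library lay below every PBS library, but by less than the rounding at the closest point, DOX replicate 4 against PBS replicate 1, and DOX replicate 1 was the lowest. The means were 17.1 ± 3.73 (SD, n = 3) in PBS and 10.8 ± 2.47 (SD, n = 5) in DOX, with a fitted log2 fold change of -0.63 ± 0.167 (SE; 95% interval -1.005 to -0.26), an unadjusted p of 0.00341 and an adjusted p of 0.995 by edgeR. The difference was -0.70 in batch 1 and -0.60 in batch 2 on the log2 CPM scale. Leaving out DOX replicate 1 gave -0.56, and moving that library to the PBS group gave -0.41. Over the alternative settings and left-out libraries it ran from -0.83 to -0.41, with adjusted p-values of 0.319 to 1.00.

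The partner subunit Gnptg read 34.7, 39.05 and 37.5 CPM in PBS and 35.7, 40.2, 42.6, 41.3 and 42.1 CPM in DOX. DOX replicate 1 lay within the PBS range and the other 4 DOX libraries above it, with a log2 fold change of 0.13 ± 0.105 (SE). Nagpa read 6.16, 8.43 and 9.49 CPM in PBS and 3.74, 8.88, 6.67, 6.95 and 7.94 CPM in DOX, so that DOX replicate 1 was the lowest library and the other 4 overlapped PBS (log2 fold change -0.20 ± 0.264, SE). Leaving out 1 library moved Nagpa between -0.43 (DOX replicate 2) and -0.07 (DOX replicate 1). The cation-dependent receptor M6pr read 62.5, 58.0 and 54.7 CPM in PBS and 52.7, 59.3, 51.1, 59.5 and 57.5 CPM in DOX, with overlapping groups and a log2 fold change of -0.06 ± 0.112 (SE; 95% interval -0.31 to 0.19).

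Of the other genes of mannose-6-phosphate sorting, the cation-independent receptor Igf2r had the smallest p. It read 36.2, 59.2 and 49.8 CPM in PBS and 23.8, 39.7, 42.7, 28.9 and 32.9 CPM in DOX, where 3 of 5 DOX libraries lay below every PBS library and 2 lay within the PBS range. The log2 fold change was -0.49 ± 0.198 (SE, unadjusted p = 0.033, adjusted p = 0.995 by edgeR). It was -0.42 (unadjusted p = 0.0548, adjusted p = 0.999) without DOX replicate 1, the lowest library, and -0.27 with that library moved to the PBS group. Of the 19 genes of this list, which also holds the GGA adaptors, retromer and adaptor complex subunits, 9 had a positive and 10 a negative log2 fold change (median -0.06), and Igf2r alone was at an unadjusted p under 0.05.

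**Figure D3:**
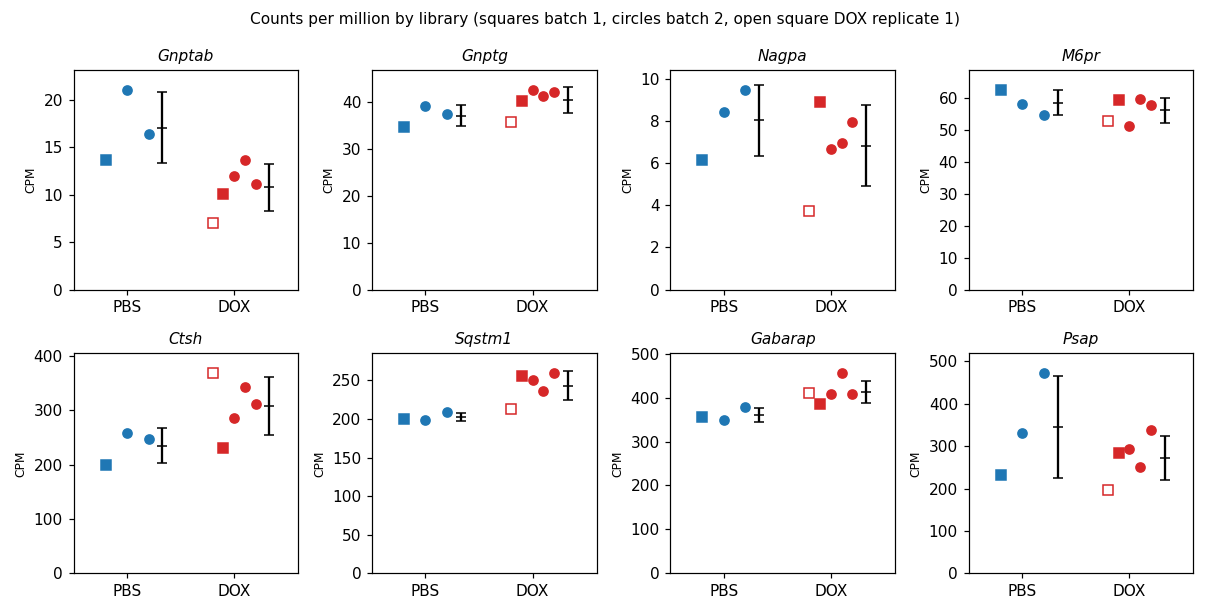
CPM of 8 of the genes in each library. Squares are batch 1, circles batch 2, the open square is DOX replicate 1, and bars are the mean with SD of each group (n = 3 PBS, n = 5 DOX). Gnptab lies lower in the DOX libraries, Sqstm1 and Gabarap higher, and DOX replicate 1 is the lowest library for Gnptab, Nagpa and Psap and the highest for Ctsh.

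Among the cathepsins and other proteases, Ctsh, an aminopeptidase-type cysteine cathepsin, stood higher in DOX while the remainder stayed close to 0. Ctsh read 199, 259 and 247 CPM in PBS and 368, 231, 286, 343 and 312 CPM in DOX. DOX replicate 1 was the highest of the 8 libraries, DOX replicate 2 lay inside the PBS range, and the remaining 3 DOX libraries also exceeded the PBS range. The log2 fold change was 0.41 ± 0.165 (SE; 95% interval 0.04 to 0.77; unadjusted p = 0.0326, adjusted p = 0.995 by edgeR), 0.28 when DOX replicate 1 was left out and 0.10 when it was moved to the PBS group. Ctsk, the collagen-degrading cathepsin that serves here as an osteoclast marker, read 328, 314 and 266 CPM in PBS and 357, 314, 361, 416 and 382 CPM in DOX (log2 fold change 0.27 ± 0.134, SE). Of the 8 osteoclast markers tested, Ctsk among them, 4 had a positive and 4 a negative log2 fold change (median -0.03). The part of osteoclast RNA in the Ctsh values was not tested.

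Ctsb, the most abundant protease of the group by CPM, read 704, 537 and 542 CPM in PBS and 382, 638, 558, 616 and 626 CPM in DOX. PBS replicate 1 was the highest and DOX replicate 1 the lowest library, and the other 4 DOX libraries lay inside the PBS range. Its difference was -0.51 in batch 1 and 0.15 in batch 2. The tripeptidyl peptidase Tpp1 read 60.4, 95.5 and 100.4 CPM in PBS and 51.7, 82.2, 77.3, 74.6 and 83.2 CPM in DOX, with PBS replicate 1 and DOX replicate 1 below the other 6 libraries. The log2 fold change of Tpp1 was -0.16 ± 0.166 (SE), -0.31 without PBS replicate 1 and -0.09 without PBS replicate 3. Ctsa, Ctsd, Ctsf, Ctsl and Ctsz had log2 fold changes between -0.11 and 0.06. The summed level of the 8 proteases was 1758 ± 31.5 CPM (SD, n = 3) in PBS and 1796 ± 242 CPM (SD, n = 5) in DOX, with DOX replicate 1 at 1378 CPM against 1818 to 1960.0 CPM in the other 4.

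The glycosidases and sulfatases, which take apart glycogen, glycoproteins, glycolipids and glycosaminoglycans, overlapped between groups in every case. The acid glucosidase Gaa, which degrades lysosomal glycogen, read 55.7, 95.5 and 100.5 CPM in PBS and 35.5, 86.2, 78.8, 70.8 and 68.2 CPM in DOX (log2 fold change -0.24 ± 0.246, SE). The arylsulfatase Arsb, which acts on dermatan and chondroitin sulfate, read 27.3, 45.1 and 37.3 CPM in PBS and 18.3, 30.4, 42.8, 27.3 and 35.7 CPM in DOX (-0.20 ± 0.193, SE). In both genes PBS replicate 1 was the lowest PBS library and DOX replicate 1 the lowest of all. Leaving out 1 library moved Gaa between -0.50 (DOX replicate 2) and -0.13 (DOX replicate 1).

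Hexa, the alpha subunit of beta-hexosaminidase and the most abundant of the group by CPM, read 130.0, 140.0 and 134 CPM in PBS and 98.8, 134, 145, 147 and 147 CPM in DOX. Its log2 fold change was 0.00 ± 0.129 (SE; 95% interval -0.28 to 0.29), and DOX replicate 1 was the only library under 130.0 CPM. The alpha-mannosidase Man2b1 read 23.0, 54.1 and 56.7 CPM in PBS and 24.7, 45.2, 47.5, 40.8 and 44.6 CPM in DOX, the libraries numbered 1 of both groups lying far under the other 6. The summed level of the 14 genes was 559.8 ± 95.1 CPM (SD, n = 3) in PBS and 512.1 ± 90.6 CPM (SD, n = 5) in DOX.

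Among the lipid hydrolases and cofactors, Psap had the smallest p. It read 232, 331 and 471 CPM in PBS and 196, 283, 292, 252 and 337 CPM in DOX, with a spread within PBS that covered 4 of the 5 DOX libraries (log2 fold change -0.28 ± 0.188, SE; 95% interval -0.70 to 0.14). It was -0.44 without PBS replicate 1 and -0.07 without PBS replicate 3. Grn, the progranulin precursor, read 116, 181 and 171 CPM in PBS and 93.7, 169.9, 163, 142 and 151 CPM in DOX (-0.08 ± 0.185, SE). The acid ceramidase Asah1 read 109, 100.2 and 100.1 CPM in PBS and 94.2, 89.5, 96.2, 98.8 and 108 CPM in DOX. For Asah1 4 of 5 DOX libraries lay below every PBS library and DOX replicate 5 lay inside the PBS range, with a log2 fold change of -0.08 ± 0.11 (SE). Npc2, Ppt1 and the sphingomyelinase Smpd1 had log2 fold changes of 0.01, -0.03 and 0.10.

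None of the 6 membrane proteins was at an unadjusted p under 0.05. Npc1, the cholesterol exporter of the lysosomal membrane, read 14.4, 18.7 and 21.8 CPM in PBS and 13.3, 19.7, 17.6, 12.8 and 16.2 CPM in DOX (log2 fold change -0.18 ± 0.191, SE), with -0.37 when PBS replicate 1 was left out and -0.06 when PBS replicate 3 was. Mcoln1, whose promoter is printed above, read 31.2, 42.3 and 47.2 CPM in PBS and 49.2, 37.9, 43.4, 40.5 and 39.5 CPM in DOX. For Mcoln1 PBS replicate 1 was the lowest library and DOX replicate 1 the highest, opposite to most hydrolases in DOX replicate 1. Cd63 read 2134, 1858 and 2144 CPM in PBS and 1943, 1870.0, 2057, 2582 and 2268 CPM in DOX (0.07 ± 0.144, SE). The remaining 3, Lamp1, Lamp2 and Scarb2, had log2 fold changes of -0.04, -0.06 and 0.03.

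Among the autophagy genes, the cargo receptor Sqstm1 and the LC3-family protein Gabarap stood higher in DOX with no overlap between the groups. Sqstm1 read 199.9, 199 and 209 CPM in PBS and 213, 256, 251, 236 and 259 CPM in DOX. All 5 DOX libraries lay above all 3 PBS libraries, DOX replicate 1 by the least, and the log2 fold change was 0.27 ± 0.115 (SE; 95% interval 0.01 to 0.52; unadjusted p = 0.0424, adjusted p = 0.995 by edgeR). The difference was 0.22 in batch 1 and 0.29 in batch 2, and 0.31 without DOX replicate 1. Gabarap read 355, 349 and 379.5 CPM in PBS and 410.5, 386, 409, 455 and 408 CPM in DOX (log2 fold change 0.20 ± 0.113, SE, unadjusted p = 0.108), again with every DOX library above every PBS library. It was 0.19 without DOX replicate 1 and 0.14 with that library moved to the PBS group. Over the 50 genes, 2 lay wholly above and 1, Gnptab, wholly below, against 1.24% and 1.19% of all genes tested in those directions. With counts scaled by library total in place of TMM, none of these 3 kept its groups apart and Wipi1 alone did.

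Summed over the 12 autophagy genes, the level was 1021, 979.9 and 1044 CPM in PBS and 1116, 1160.0, 1122, 1162 and 1165 CPM in DOX. Gabarap and Sqstm1 made up 54.4% to 59.5% of that sum. Without them the other 10 genes summed to 433 to 466 CPM in PBS and 462 to 519 CPM in DOX, so 1 of the 5 DOX libraries fell inside the PBS range. Scaled by library total, the sum of all 12 overlapped, at 811 to 1328 CPM in PBS and 1032 to 1403 CPM in DOX.

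The other named autophagy genes overlapped between groups. Map1lc3b, which encodes LC3B, read 193, 126 and 143 CPM in PBS and 190.3, 178, 152, 161 and 183 CPM in DOX, with PBS replicate 1 the highest library and the 5 DOX libraries above PBS replicates 2 and 3. Atg5, part of the conjugation complex that lipidates LC3, read 38.8, 28.1 and 23.4 CPM in PBS and 33.8, 36.9, 32.0, 32.9 and 34.2 CPM in DOX, a pattern of the same shape. Without PBS replicate 1 the log2 fold change of Atg5 was 0.37 (unadjusted p = 0.0321, adjusted p = 0.701 by edgeR) against 0.18 with it. The initiating kinase Ulk1 read 11.8, 20.4 and 21.6 CPM in PBS and 17.5, 20.2, 23.3, 16.0 and 18.1 CPM in DOX. Wipi1, a phosphoinositide-binding protein of the early autophagosome, read 67.5, 103 and 108 CPM in PBS and 89.1, 96.3, 102, 92.9 and 107 CPM in DOX, and in Ulk1 and Wipi1 PBS replicate 1 was the lowest of the 8 libraries. The regulators Tfeb and Tfe3 had log2 fold changes of -0.13 ± 0.209 and -0.20 ± 0.161 (SE).

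The difference between DOX and PBS went opposite ways in the 2 batches for 29 of the 50 genes (58%), against 57.0% of all genes tested. The membrane group disagreed in 6 of 6, the lipid group in 5 of 6, the autophagy group in 7 of 12, the glycosidases and sulfatases in 7 of 14, the proteases in 4 of 8 and the targeting genes in 0 of 4. In the test of the batch difference by edgeR, which rests on a single PBS library in batch 1, 0 of 15373 genes were called (0%) and 1806 (11.7%) stood at an unadjusted p under 0.05. Of the 50 genes, 4 did, which is near that background. These were Ulk1, Man2b1, Wipi1 and Mcoln1. In all 4 the difference was positive in batch 1 and negative in batch 2, and PBS replicate 1 was the lowest PBS library. For Ulk1 it was 0.67 in batch 1 and -0.15 in batch 2, an interaction of -0.81 ± 0.317 (SE, unadjusted p = 0.0298, adjusted p = 0.376). In batch 2 alone, with 2 PBS and 3 DOX libraries, the glycosidases and sulfatases had 2 positive and 12 negative differences (median -0.18), and the autophagy genes 6 of each sign.

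**Figure D4:**
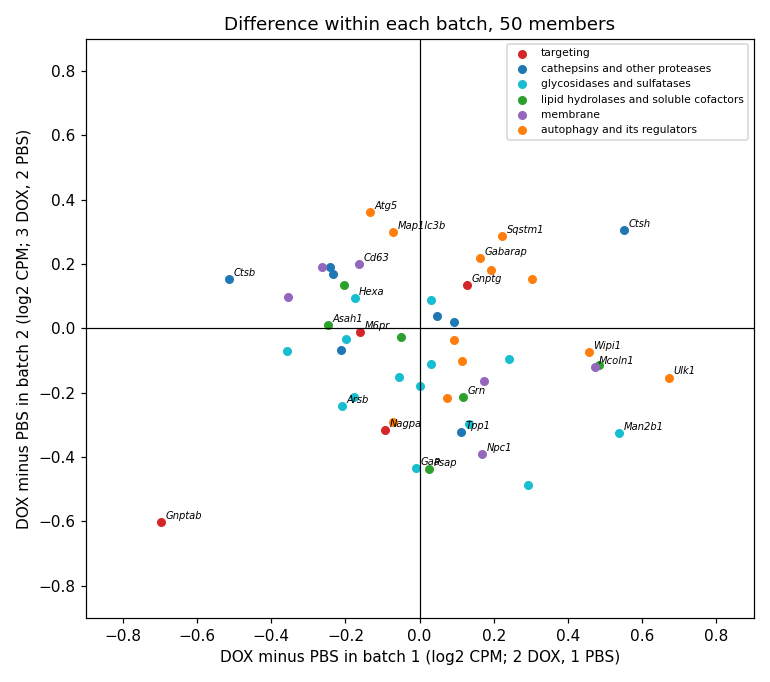
Difference between DOX and PBS in log2 CPM within batch 1 (x axis, 2 DOX and 1 PBS library) and within batch 2 (y axis, 3 DOX and 2 PBS libraries) for the 50 genes, coloured by role, with the named genes labelled. Genes in the upper left and lower right, 29 of the 50, differ in sign between the batches; Gnptab lies far into the lower left and Ctsh into the upper right.

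DOX replicate 1, the library whose labels disagree, stood apart in these genes. It was the lowest of the 8 libraries for 29 of the 50 genes against 19.1% of all genes tested, and it lay below all 4 other DOX libraries for 35 (70%) against 29.4% of all genes. Most of the low genes encode soluble enzymes: 7 of 8 proteases, 13 of 14 glycosidases and sulfatases, and 5 of 6 lipid hydrolases and cofactors lay below the other 4, as did 3 of 4 targeting genes. Of the membrane proteins 3 of 6 did, and of the autophagy genes 4 of 12. Its median deviation from the mean of the 8 libraries was -0.61 on the log2 scale for the glycosidases and sulfatases, -0.56 for the proteases, -0.46 for the lipid group and 0.00 for the autophagy group, against 0.02 for all genes tested. Gaa stood at 46.7% of the mean of the other DOX libraries, Nagpa at 49.1%, Gla at 53.3% and Arsb at 53.7%. Against the run of the group, Ctsh stood at 126% and Mcoln1 at 122%.

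Other lysosomal hydrolases and cofactors not among the 50 went the same way in DOX replicate 1. Of 33, 22 (66.7%) lay below the other 4 DOX libraries (median deviation -0.32), against 29.4% of all genes tested. So did 9 of 18 subunits (50%) of the vacuolar ATPase that acidifies the lysosome and 13 of 30 other lysosomal membrane proteins (43.3%). The counts were 8 of 19 other sorting genes (42.1%), 14 of 42 other autophagy genes (33.3%) and 5 of 17 regulators of TFEB and mTORC1 (29.4%). Scaling shifts all genes of a library nearly alike. The offset of the 50 from all genes in DOX replicate 1 therefore hardly depends on it and is no check of the scaling. With counts scaled by library total, 22 of the 50 lay below the other DOX libraries against 10.5% of all genes, and the 50 stood -0.30 from the median of all genes, which that scaling moved to 0.29; with TMM the offset was -0.34. In the batch-mate PBS replicate 1, the median deviation was -0.24 for the glycosidases and sulfatases and -0.15 for all 50. The collagen genes took 19.1% of counts in PBS replicate 1 and 23.2% in DOX replicate 1, against 26.0% to 39.5% in the other 6 libraries; the part of this in the low hydrolase levels was not tested. DOX replicate 1 lay nearer to the PBS mean than to the mean of the other DOX libraries for 26 of the 50 genes (52%), against 44.2% of all genes. Where it was the lowest of all libraries, as for 29 of the 50, this records only which of these means is lower.

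**Figure D5:**
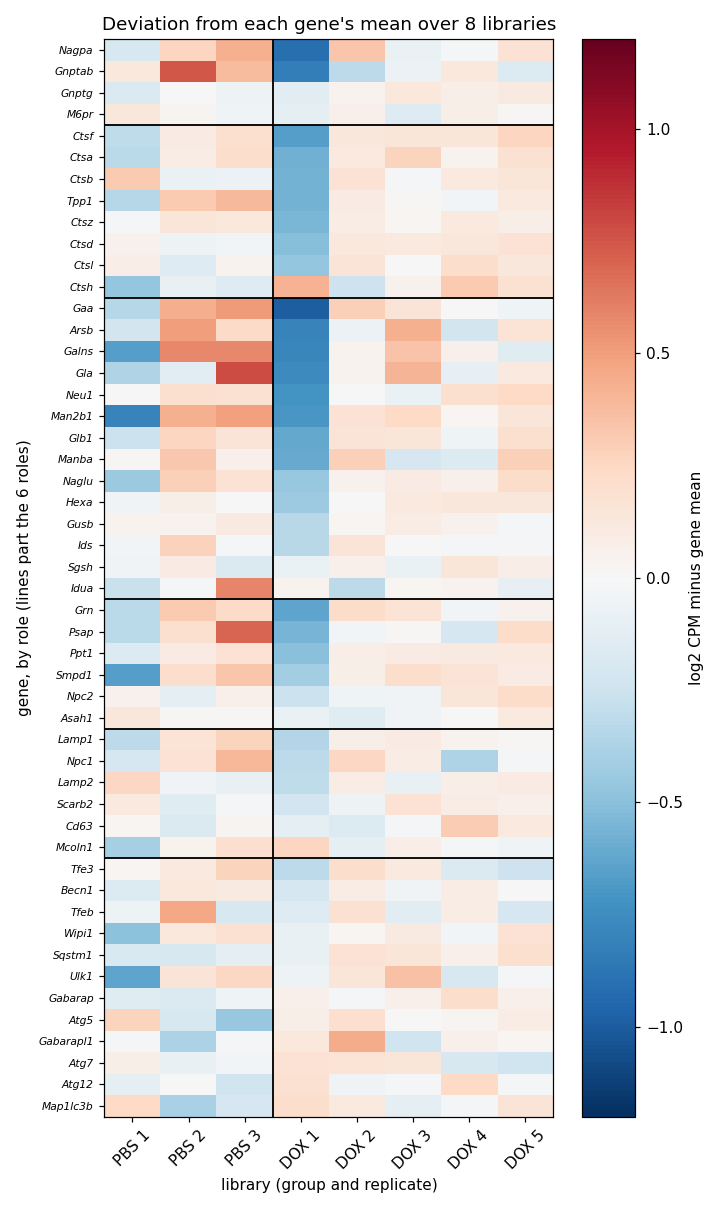
Deviation of log2 CPM from each gene's mean over the 8 libraries, 3 PBS and 5 DOX, with the genes grouped by role and ordered within it by DOX replicate 1. DOX replicate 1 forms a column of low values across the targeting genes and soluble hydrolases, where its role medians lie between -0.46 and -0.61, that ends in the autophagy group, where its median is 0.00.

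Across the lists of other lysosome and autophagy genes, 0 of 159 genes were called by edgeR and 2 (1.26%) stood at an unadjusted p under 0.05, fewer than the 3.71% of all genes tested. These were Igf2r, described above, and Fnip2, a partner of folliculin in the control of mTORC1 and TFEB. Fnip2 read 0.469, 2.94 and 0.963 CPM in PBS and 2.47, 3.35, 5.17, 2.45 and 3.69 CPM in DOX, so that 3 of the 5 DOX values exceeded the PBS range (log2 fold change 1.45 ± 0.509, SE, unadjusted p = 0.0168, adjusted p = 0.995 by edgeR). It was 0.95 without PBS replicate 1. Its list of TFEB and mTORC1 regulators held 7 higher and 10 lower of 17. The other hydrolases and cofactors split into 13 higher and 20 lower (median -0.03), and the lysosomal acid phosphatase Acp2 had the smallest p. Acp2 read 36.3, 36.4 and 39.8 CPM in PBS and 23.6, 33.9, 31.6, 31.4 and 31.7 CPM in DOX, all 5 below all 3 (log2 fold change -0.30 ± 0.133, SE, unadjusted p = 0.0501). It was -0.22 without DOX replicate 1, the lowest library, and -0.11 with that library moved to the PBS group.

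Of 30 other lysosomal membrane proteins 17 were higher and 13 lower (median 0.01), and Laptm4b had the smallest p, with 38.9, 36.1 and 35.7 CPM in PBS and 31.5, 33.5, 32.5, 32.8 and 30.8 CPM in DOX. All 5 DOX libraries lay below all 3 PBS libraries for Laptm4b (log2 fold change -0.20 ± 0.104, SE). This held for 1 of the 30 genes of its list and for 2 of the 33 other hydrolases and cofactors, Acp2 among them. In the other lists it held for 0 genes, and over all genes tested for 1.19%. With counts scaled by library total the log2 fold change was -0.12 for Laptm4b and -0.22 for Acp2. The vacuolar ATPase subunits gave 11 higher and 7 lower (median 0.02), led by Atp6v0a1 at -0.28 ± 0.178 (SE) with overlapping groups. Of the 42 other autophagy genes 21 were higher and 21 lower (median 0.00), led by the cargo receptor Optn at 0.32 ± 0.166 (SE), for which PBS replicate 1 was the lowest library and 1 of the 5 DOX values exceeded the PBS range.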

How the data were processed

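Polyadenylated RNA of sorted osteoblasts was sequenced from PCR-amplified SMART-Seq v4 Plus cDNA, a strandless method, so overlapping genes on opposite strands share reads. The protocols name no molecular identifiers, and counts are therefore of reads. The authors deposited raw counts by gene symbol with a column for each library. The submitters' processing notes list STAR 2.7.9a, featureCounts 2.0.1, Trim Galore 0.6.6, SAMtools 1.17, FastQC 0.11.5 and MultiQC 1.7, with no order. The annotation, the strand setting and the treatment of multi-mapping reads were not given in the sources used here. No gene had a total under 10 counts.

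Groups came from the sample titles, which call the libraries biological replicates; p-values measure the spread between these libraries. From the deposited counts, CPM, log2 CPM (prior count 2) and tests were computed in R 4.3.3 with edgeR 4.0.16 (filterByExpr, TMM scaling, quasi-likelihood fit, two-sided, batch and group as terms). Alternatives used limma 3.58.1, DESeq2 1.42.0, other scalings and filters, a replicate block, and left-out or relabelled libraries. Plots used Python 3.11.15 and matplotlib 3.10.9. Levels per kilobase used the union of exons in GENCODE annotation of an older mouse build than the one used for the counts, so other gene coordinates are not given. The fits were also run on simulated counts that held no batch difference, and the outcome is not reported here. Adjusted p-values run over all genes tested.

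The 50 genes and all lists were chosen with earlier results of these data known, among them that of Gnptab, and are not independent evidence. Values of every library are given for the targeting genes, for the 2 genes of smallest p and the most abundant other gene of each further role, for genes at an unadjusted p under 0.05 in the fit of all libraries, the fit without PBS replicate 1 or the batch test, and for the gene of smallest p in most other lists. Promoters are shown for 4 of these genes, first those with the longer element and then those with the shorter, each by the smallest p of DOX against PBS.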

Additional observations from a re-analysis of the deposited data

Results flagged for a closer look

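Of 29 values checked over the 5 DOX libraries, the CPM of 23 named genes and the summed CPM of 6 roles, 4 held a library far from the others by Dixon's criterion at the 95% level. Chance flags about 1 in 20 such groups where they are independent. Here the sums contain named genes and all values share the same 5 libraries, so the 4 cannot be set against that rate. DOX replicate 1 was the distant library, and the lowest, in all 4. Tpp1 stood at 51.7 CPM there against 74.6 to 83.2 CPM in the other 4 DOX libraries, and Hexa at 98.8 CPM against 134 to 147 CPM. The summed level of the cathepsins and other proteases was 1380 CPM there, and that of the glycosidases and sulfatases was 352 CPM against 531 to 566 CPM. DOX replicate 1 is the library whose title and treatment tag disagree.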

How the results depend on the processing

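No lysosomal or autophagy gene among the 50 was called under any setting tried. DESeq2 called 26 of the 21154 genes of the table for DOX against PBS and 269 for the batch difference. Of the 50 genes, 0 were among either, which is near that background. The number of the 50 at an unadjusted p under 0.05 was 3 with all libraries (3.71% of all genes). It was 7 with limma-voom (10.2%), 10 in batch 2 alone (12.8%) and 10 with PBS replicate 1 and DOX replicate 1 both left out (12.6%). With PBS replicate 1 left out, alone or with DOX replicate 1, batch 1 holds no PBS library. The fitted difference then comes from batch 2, so these settings are not separate checks. With DOX replicate 1 counted as PBS the number was 1 (2.09%). Leaving out each library gave 1 to 9, the 9 without DOX replicate 2 (10.4% of all genes). For the batch difference, leaving out a library gave 0 to 58 called genes, 10 without DOX replicate 1 and 58 without DOX replicate 2, and 0 to 12 of the 50 at an unadjusted p under 0.05, with 12 without DOX replicate 1 (19.9% of all genes) and 11 without DOX replicate 2 (15.2%). Either leaves 1 PBS and 1 DOX library in batch 1, so that the spread comes from batch 2 alone. Without PBS replicate 1 the batch difference could not be fitted. The number of the 50 with no overlap between groups, 3 in all libraries (2.43% of all genes), was 1 with scaling by total counts (1.74%), 21 in batch 2 alone (31.2%) and 3 to 13 with 1 library left out. It was 13 without PBS replicate 1 (17.4%) and 5 without DOX replicate 1 (4.18%). The number below the other DOX libraries in DOX replicate 1, 35, was 22 with total counts. The median log2 fold change of the 50 ran from -0.08 to 0.03 with a library left out. Where no value shows it, the cause was not tested.

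Replicate numbers 1 to 3 occur in both groups, but no label ties them to shared animals or days. Deviations of same-numbered libraries correlated at 0.25, -0.05 and 0.24 across genes. PBS replicates 1 and 3 correlated best with the DOX library of their number, which shares their batch. PBS replicate 2 correlated best with DOX replicate 3 (0.18), and DOX replicate 2 lies in the other batch. With no label for pairs, the numbers were not taken to pair libraries. With the replicate block in place of batch, 0 genes were called by edgeR. In that fit 5 of the 50, all lower, stood at an unadjusted p under 0.05 (3.04% of all genes). Of the 50, 13 were above 0, with a median of -0.12, and Cd63 went to -0.062 and Hexa to -0.12. DOX replicates 4 and 5 have no PBS library of their number, so the difference of that fit rests on replicates 1 to 3.

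Of the 23 named genes 13 changed sign under some setting, 12 of which differed by less than 1 SE with all libraries. With DOX replicate 1 counted as PBS the log2 fold changes were -0.11 for Mcoln1, 0.0037 for Arsb, 0.0077 for M6pr, 0.061 for Gaa, 0.10 for Nagpa, 0.12 for Grn, 0.13 for Man2b1 and 0.18 for Ctsb. In batch 2 alone they were -0.065 for Wipi1, -0.12 for Mcoln1, -0.13 for Ulk1, 0.016 for Asah1 and 0.16 for Ctsb. With both libraries numbered 1 left out they were -0.066, -0.12, -0.13, 0.014 and 0.16 for the same genes. The difference of that fit also comes from batch 2 alone, so the 2 settings are nearly the same comparison. With limma-voom Mcoln1 was -0.015, Ulk1 -0.028 and Ctsb 0.053. Hexa was -0.0038 without the batch term and -0.0027 without the filter. With total counts Asah1 was 0.0031, M6pr 0.020 and Man2b1 0.075. Leaving out 1 library gave -0.11 to 0.19 for Mcoln1, -0.24 to 0.0064 for Grn, -0.31 to 0.10 for Man2b1, -0.16 to 0.16 for Ctsb, -0.049 to 0.10 for Hexa, -0.060 to 0.18 for Wipi1, -0.13 to 0.25 for Ulk1, -0.10 to 0.0021 for M6pr, -0.13 to 0.020 for Asah1 and -0.027 to 0.21 for Cd63.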
